A study of Arabidopsis thaliana with 8 samples.

Results

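Arabidopsis thaliana has 21 genes for heat shock transcription factors (HSFs), and 10 of them are described here: HSFA1A (AT4G17750), HSFA1B (AT5G16820), HSFA1D (AT1G32330), HSFA1E (AT3G02990), HSFA2 (AT2G26150), HSFA3 (AT5G03720), HSFA6B (AT3G22830), HSFA7A (AT3G51910), HSFB1 (AT4G36990) and HSFB2A (AT5G62020). They were taken by locus identifier from the tables of all 8 libraries, which together list 26547 genes with a read. The set was chosen with earlier results of these data known. 9 of the 10 had enough reads for the fitted tests, and HSFB1 did not.

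HSFs are DNA-binding proteins that recognise heat shock elements, inverted repeats of the letters GAA and TTC, in the promoters of chaperone genes. In plants the HSFA1 proteins are the master activators of the heat response, held inactive by chaperones in unstressed cells. Once active they switch on further HSFs, among them HSFA2, HSFA7A and, through the factor DREB2A, HSFA3. Class B factors such as HSFB1 and HSFB2A lack the activation motif of class A, and HSFB1 is known as a repressor. HSFs also take part in responses to other stresses, and HSFA6B is known as an abscisic acid responsive member.

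RNA came from 2-week-old plants and was labelled as leaf tissue. The mutant lsm8-1, in the Col-0 background, was set against Col-0 wild type. LSM8 sits in the nuclear LSM complex, which binds U6 small nuclear RNA and takes part in pre-mRNA splicing. In the cold experiment, plants in soil were held at 4 °C for 24 h with 40 µmol m-2 s-1 of light or kept at 20 °C with 90 µmol m-2 s-1, so light and temperature changed together. In the salt experiment, plants on 0.5X GM medium plates were moved to 150 mM NaCl for 10 h or stayed on GM. Each genotype had 1 library per condition, and whether a library pooled several plants is not stated.

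LSM8 (AT1G65700) stood at 21.2 CPM in lsm8-1 and 48.2 CPM in Col-0 at 4 °C, at 5.55 and 17.3 CPM in the same genotypes at 20 °C, at 0.707 and 4.65 CPM with NaCl, and at 1.31 and 6.31 CPM on GM, where CPM is counts per 1000000 reads after TMM scaling. The mutant was lower in every condition, at 0.152 to 0.439 of Col-0, and kept some LSM8 reads in each. The libraries held 33.4 to 45.9 M reads (M, 1000000), and a count of 0 allows up to 3 reads, 0.0671 to 0.0898 CPM. All 6 leaf markers reached 5 CPM in every library. Of 8 root markers, 8 reached 5 CPM in both GM libraries and in lsm8-1 with NaCl, 4 did in Col-0 with NaCl and 2 did in each soil library, where BGLU21 and EXPA7 had no read. The root markers summed to 1797 CPM in lsm8-1 and 2379 CPM in Col-0 with NaCl, and to 4092 CPM in lsm8-1 and 6666 CPM in Col-0 on GM. The leaf markers summed to 10693 and 7649 CPM with NaCl and to 18586 and 10908 CPM on GM, lsm8-1 before Col-0 in each case. The part of this tissue make-up in the plate results was not tested, and fewer cells of a type cannot be told apart from less RNA per cell. The soil tables count reads per gene and the plate tables per transcript model. Loci with several models hold 6.92% of reads on plates and 35.4% in soil, so levels of HSFA1B and HSFA2, which have several models, are compared only within an experiment.

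Of the 9 members tested, 5 rose with NaCl over both genotypes and 0 fell, against a background of 15.2% of genes higher and 15.1% lower, 30.3% in all (edgeR quasi-likelihood test, Benjamini-Hochberg adjusted p under 0.05). In the cold 1 rose and 4 fell, against 19% of genes higher and 20.1% lower, 39.2% in all. No member passed for genotype, against 0.756% of genes higher and 0.336% lower, 1.09% in all. HSFA1E was the member that rose in both stresses, while HSFB2A fell in the cold and rose with NaCl. The median log2 effect of the 9 members was 0.86 with NaCl, -0.12 in the cold and 0.07 for genotype, and over all 20228 genes tested it was -0.0038, -0.03 and 0.02.

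**Figure D1:**
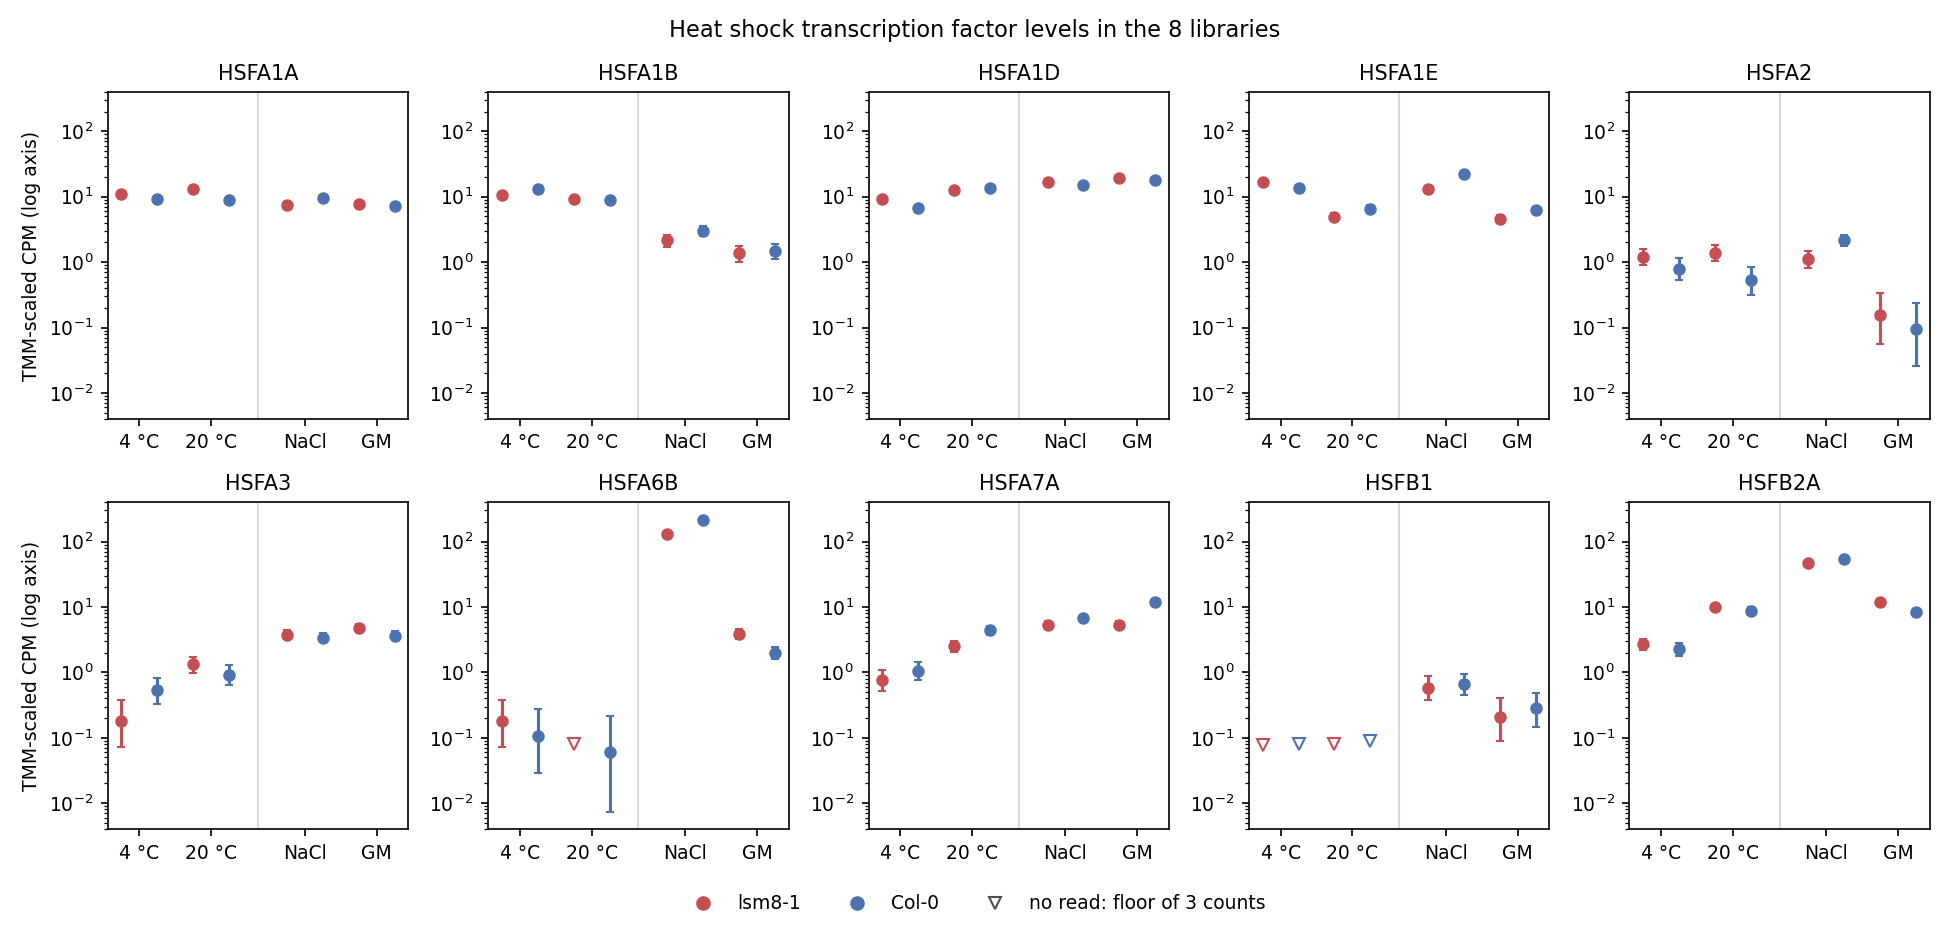
TMM-scaled CPM of the 10 HSF genes in each library (log axis), with exact Poisson 95% intervals for counting error; red is lsm8-1, blue is Col-0, and open triangles mark libraries with no read, drawn at the floor of 3 counts. HSFA6B stood at 129 CPM in lsm8-1 and 210 CPM in Col-0 with NaCl, and at 3.86 and 1.99 CPM in the same genotypes on GM.

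HSFA1E, one of the master activators, had 16.8 CPM in lsm8-1 and 13.6 CPM in Col-0 at 4 °C, against 4.88 CPM in lsm8-1 and 6.55 CPM in Col-0 at 20 °C. With NaCl it had 13.3 CPM in lsm8-1 and 22.5 CPM in Col-0, against 4.55 CPM in lsm8-1 and 6.26 CPM in Col-0 on GM. All 4 stressed libraries lay above all 4 unstressed ones, though the share of all genes so separated was not counted. The cold ratio was 3.44 (95% counting interval 2.91 to 4.08) in lsm8-1 and 2.08 (1.77 to 2.45) in Col-0, and the fitted cold effect was 1.45 ± 0.26 on the log2 scale (SE, adjusted p = 0.00417). The NaCl ratio was 2.92 (2.46 to 3.48) in lsm8-1 and 3.59 (3.14 to 4.13) in Col-0, with a fitted effect of 1.71 ± 0.26 (adjusted p = 0.00293).

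HSFA1D, another of the HSFA1 activators, had 9.31 CPM in lsm8-1 and 6.61 CPM in Col-0 at 4 °C, against 12.6 CPM in lsm8-1 and 13.5 CPM in Col-0 at 20 °C. The fitted cold effect was -0.72 ± 0.18 (adjusted p = 0.0176). The call was lost without Col-0 at 20 °C (adjusted p = 0.144) and without Col-0 at 4 °C (0.123). HSFA1D had 17.1 CPM in lsm8-1 and 15.2 CPM in Col-0 with NaCl, and 19.3 CPM in lsm8-1 and 18.0 CPM in Col-0 on GM, and did not pass (-0.21 ± 0.18, adjusted p = 0.418).

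HSFA1B had 2.15 CPM in lsm8-1 and 3.02 CPM in Col-0 with NaCl, against 1.36 CPM in lsm8-1 and 1.48 CPM in Col-0 on GM. It rose by 0.86 ± 0.24 (adjusted p = 0.0306), a call that was lost in 7 of 14 alternatives, with adjusted p up to 0.143, among them the salt experiment alone (0.0701) and the count of its top model alone (0.0792). The other 5 each left out 1 library: Col-0 at 4 °C (0.0532), lsm8-1 at 4 °C (0.0509), Col-0 on GM (0.143), lsm8-1 on GM (0.0999) and Col-0 with NaCl (0.143). In soil HSFA1B had 10.8 CPM in lsm8-1 and 13.1 CPM in Col-0 at 4 °C, against 9.30 CPM in lsm8-1 and 8.92 CPM in Col-0 at 20 °C (0.38 ± 0.21, adjusted p = 0.196). In the cold experiment alone this effect passed, with an adjusted p of 0.0436. Part of the locus is overlapped by AT5G16830 on the opposite strand, and whether the libraries kept the strand is not stated.

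HSFA1A, the remaining master activator, had 10.9 CPM in lsm8-1 and 9.32 CPM in Col-0 at 4 °C, against 13.2 CPM in lsm8-1 and 8.92 CPM in Col-0 at 20 °C. On plates it had 7.36 CPM in lsm8-1 and 9.44 CPM in Col-0 with NaCl, against 7.78 CPM in lsm8-1 and 7.22 CPM in Col-0 on GM. Its 8 libraries spanned less than 2-fold, and neither stress passed the test (cold -0.12 ± 0.24, adjusted p = 0.741; NaCl 0.17 ± 0.24, adjusted p = 0.621).

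HSFA6B had the largest response of the 10. It had 5271 reads in lsm8-1 and 9409 in Col-0 with NaCl, against 151 reads in lsm8-1 and 85 in Col-0 on GM, which is 129 and 210 CPM against 3.86 and 1.99 CPM. In soil it was close to the floor, with 7 reads in lsm8-1 and 4 in Col-0 at 4 °C, and 0 in lsm8-1 and 2 in Col-0 at 20 °C, so a cold effect was not detectable at this depth. The fitted NaCl effect was 5.86 ± 0.43 on the log2 scale (adjusted p = 0.000229), and it passed in 14 of 14 alternatives. Leaving out 1 plate library moved it to 5.12 (without Col-0 on GM), 5.15 (Col-0 with NaCl), 6.67 (lsm8-1 on GM) and 6.68 (lsm8-1 with NaCl).

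HSFA2, the heat-inducible factor that prolongs the response, had 46 reads in lsm8-1 and 96 in Col-0 with NaCl, against 6 in lsm8-1 and 4 in Col-0 on GM. These are 1.12 and 2.15 CPM against 0.154 and 0.0938 CPM. The rise was 3.76 ± 0.71 (adjusted p = 0.00658), and without the Col-0 GM library it was 3.56 with an adjusted p of 0.0528. It was 2.79 without Col-0 with NaCl and 4.61 without lsm8-1 with NaCl. In soil HSFA2 had 47 reads in lsm8-1 and 30 in Col-0 at 4 °C, and 51 in lsm8-1 and 18 in Col-0 at 20 °C, with no cold effect that passed (0.09 ± 0.58, adjusted p = 0.943).

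HSFA3, a target of DREB2A, had 7 reads in lsm8-1 and 20 in Col-0 at 4 °C, against 49 in lsm8-1 and 31 in Col-0 at 20 °C. It fell by 1.65 on the log2 scale (SE 0.51, adjusted p = 0.0372), but the call was lost in 6 of 13 alternatives. The cold experiment alone is not among the 13, because HSFA3 had too few reads in soil for that fit. It entered the fit of all libraries only with its plate libraries counted. Each of the 6 left out 1 library, and the fitted effect then ran from -0.89 without lsm8-1 at 4 °C (adjusted p = 0.192) to -1.93 without Col-0 at 20 °C (0.0820). Without Col-0 at 4 °C the call held, at -2.77. The other losses were without lsm8-1 at 20 °C (0.179), lsm8-1 on GM (0.0520), Col-0 with NaCl (0.0552) and lsm8-1 with NaCl (0.0559). On plates it had 3.75 CPM in lsm8-1 and 3.40 CPM in Col-0 with NaCl, against 4.84 CPM in lsm8-1 and 3.66 CPM in Col-0 on GM, and no effect passed (-0.24 ± 0.40, adjusted p = 0.686). AT5G03710 overlaps HSFA3 on the opposite strand.

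HSFA7A, a heat-inducible class A factor, had 0.774 CPM in lsm8-1 and 1.06 CPM in Col-0 at 4 °C, against 2.51 CPM in lsm8-1 and 4.43 CPM in Col-0 at 20 °C. It fell by 1.88 (SE 0.30, adjusted p = 0.00239). On plates it had 5.39 CPM in lsm8-1 and 6.82 CPM in Col-0 with NaCl, against 5.30 CPM in lsm8-1 and 11.9 CPM in Col-0 on GM. The Col-0 GM library stood apart from the other 3 plate libraries, and the NaCl effect did not pass (-0.40 ± 0.26, adjusted p = 0.288).

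HSFB2A, a class B factor, had 2.71 CPM in lsm8-1 and 2.26 CPM in Col-0 at 4 °C, against 9.92 CPM in lsm8-1 and 8.83 CPM in Col-0 at 20 °C. It fell by 1.92 (SE 0.22, adjusted p = 0.000548). With NaCl it had 46.7 CPM in lsm8-1 and 54.0 CPM in Col-0, against 12.1 CPM in lsm8-1 and 8.33 CPM in Col-0 on GM, a rise of 2.32 ± 0.20 (adjusted p = 0.000390). The groups did not overlap in either experiment, though the share of all genes so separated was not counted. Both calls held in 14 of 14 alternatives.

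HSFB1 had 24 reads in lsm8-1 and 30 in Col-0 with NaCl, and 8 reads in lsm8-1 and 12 in Col-0 on GM. It had no read in any of the 4 soil libraries, where 3 counts correspond to 0.0774 to 0.0898 CPM. Its NaCl ratio was 2.86 (1.24 to 7.36) in lsm8-1 and 2.38 (1.19 to 5.11) in Col-0, from single libraries with no test. The deposited coverage with NaCl, treated there as a score, was 46.7 in lsm8-1 and 46.4 in Col-0. On GM the reads covered 25.7% and 29.8% of its length in the same genotypes.

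**Figure D2:**
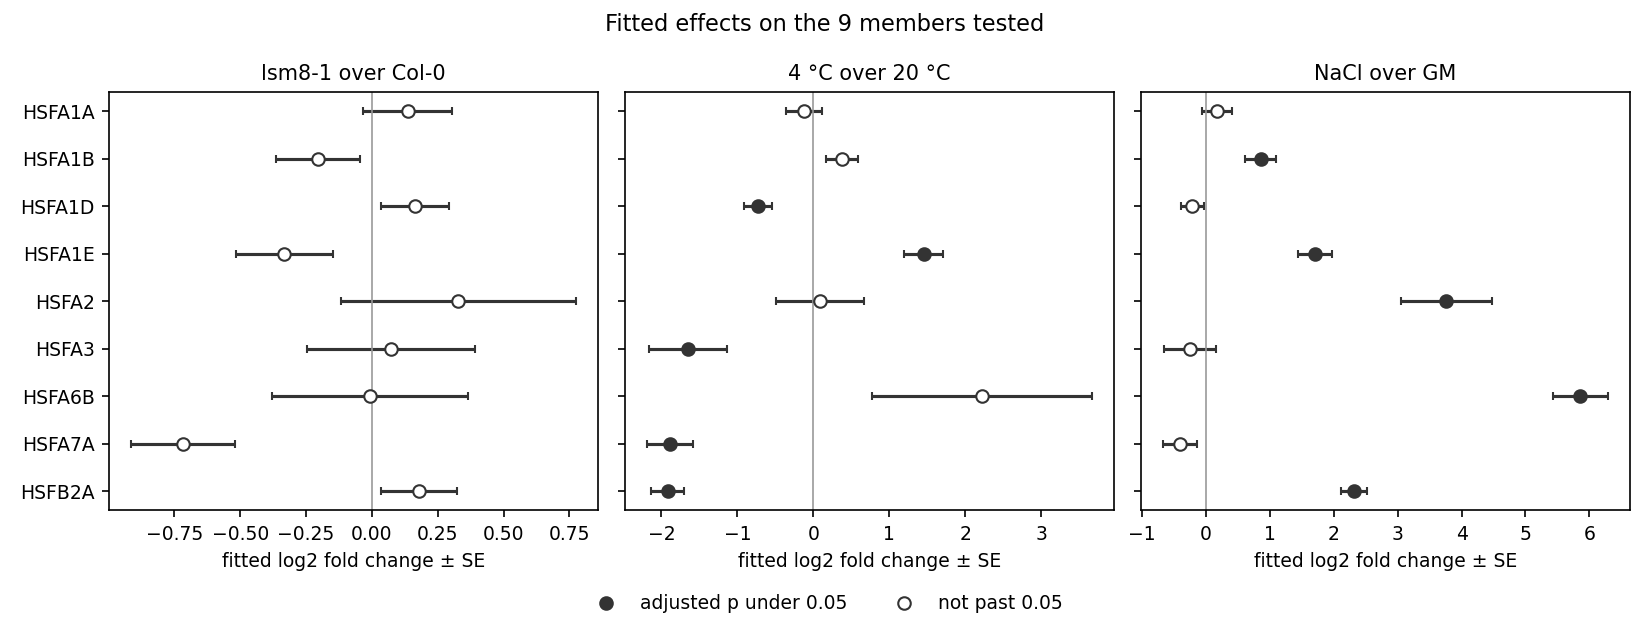
Fitted log2 fold changes with SE for the 9 members tested, from 1 additive edgeR fit over 8 libraries, for lsm8-1 over Col-0, 4 °C over 20 °C and NaCl over GM. Filled points have an adjusted p under 0.05; the widths of the axes differ between panels, and HSFA6B has the largest effect, 5.86 with NaCl.

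Per length, the 4 HSFA1 genes, HSFB2A and HSFA7A were the most abundant members in soil at 20 °C. In lsm8-1 the deposited RPKM (reads per kilobase of length and 1000000 reads) were 6.49 for HSFA1A, 5.45 for HSFB2A, 5.42 for HSFA1D, 4.03 for HSFA1B, 2.48 for HSFA7A and 2.12 for HSFA1E. In Col-0 they were 5.42 for HSFA1D, 4.54 for HSFB2A, 4.12 for HSFA1A, 4.09 for HSFA7A, 3.62 for HSFA1B and 2.66 for HSFA1E. Counting intervals of neighbours overlapped except between HSFA1D and HSFA1B and between HSFA1B and HSFA7A in lsm8-1, and between HSFA1B and HSFA1E in Col-0. HSFA3 (0.782 and 0.514 RPKM) and HSFA2 (0.782 and 0.287 RPKM, lsm8-1 before Col-0) came next, and their intervals overlapped in both genotypes. At 4 °C HSFA1E led in both, at 7.61 RPKM in lsm8-1, where its interval lay above that of HSFA1A (5.64 RPKM), and at 6.01 RPKM in Col-0, where it overlapped HSFA1B (5.78 RPKM). These ranks have 1 library each and rest on the deposited gene lengths.

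Between the genotypes, no member passed the edgeR test over the 4 conditions, and 1 of 9 did so at an unadjusted p under 0.05, against 18.6% of all genes. That member was HSFA7A, lower in lsm8-1 in 4 of 4 conditions (-0.72 ± 0.20, adjusted p = 0.132, 0.0410 to 0.351 over its alternatives). DESeq2 gave -0.73 with an adjusted p of 0.0410 and called this member alone. Over all genes DESeq2 also called many more for genotype than edgeR did, as counted below. The lsm8-1 over Col-0 ratio was 0.729 (0.438 to 1.20) at 4 °C, 0.566 (0.432 to 0.739) at 20 °C, 0.790 (0.661 to 0.942) with NaCl and 0.446 (0.378 to 0.526) on GM. Between the genotypes in 1 condition, a gene was called at 2-fold or more with 5 CPM or more in 1 of the libraries. HSFA7A on GM was the single member so called, lower in lsm8-1, against 1.81% of 13244 genes higher and 2.23% lower. No member was called at 4 °C (2.02% of genes higher, 0.913% lower), at 20 °C (1.06% higher, 0.618% lower) or with NaCl (3.34% higher, 1.93% lower). On GM the deposited coverage of HSFA7A was uneven. It had 207 reads over 90.23% of its length in lsm8-1 and 506 reads over 68.0% in Col-0. With NaCl, where coverage was treated as a score, the score was 99.9 with 221 reads in lsm8-1 and 99.4 with 305 in Col-0. The part of uneven coverage in the ratio was not tested.

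The members that rose with NaCl were compared between genotypes in their response. By the same 2-fold rule, 3 members were higher with NaCl in lsm8-1 and 3 in Col-0, and 0 were lower in either. In each genotype 3 more stayed under 2-fold and 4 were under 5 CPM. HSFA6B in both genotypes, and HSFA1E in lsm8-1, reached 5 CPM only in the NaCl library, where they are higher. The background in lsm8-1 was 11.8% of genes higher and 8.37% lower, and in Col-0 11.4% higher and 9.47% lower. The NaCl over GM ratio of HSFA6B was 33.3 (28.3 to 39.4) in lsm8-1 and 106 (85.3 to 132) in Col-0. That of HSFA2 was 7.30 (3.11 to 20.9) in lsm8-1 and 22.9 (8.65 to 85.7) in Col-0, and that of HSFB2A 3.86 (3.48 to 4.27) in lsm8-1 and 6.48 (5.80 to 7.27) in Col-0. HSFA1E and HSFA1B also had the smaller ratio in lsm8-1, at 2.92 against 3.59 in Col-0 and 1.58 (1.11 to 2.27) against 2.04 (1.50 to 2.80) in Col-0. Intervals were separate for HSFA6B and HSFB2A and overlapped for the other 3. Members that did not pass with NaCl went both ways. Their log2 ratio in lsm8-1 minus that in Col-0 was 0.82 for HSFA7A, 0.07 for HSFA1D, -0.46 for HSFA1A and -0.26 for HSFA3. For HSFB1, which was not in the fit, it was 0.26. No difference in response passed the edgeR interaction test, which has 1 residual degree of freedom and called 0 of 20228 genes (1164, or 5.75%, at an unadjusted p under 0.05); with library totals in place of TMM it called 173. The fitted difference, lsm8-1 minus Col-0, used a genotype baseline pooled over the unstressed soil pair and the GM pair. It is therefore not the difference on plates alone. It was -1.56 ± 0.45 for HSFA6B (unadjusted p = 0.0101, adjusted p = 0.674) and -2.10 ± 0.88 for HSFA2 (unadjusted p = 0.0491, adjusted p = 0.864). From the plate libraries alone, with no test, the difference was -1.67 for HSFA6B and -1.65 for HSFA2. The median fitted difference over the 9 members was -0.48 and over all genes -0.02.

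**Figure D3:**
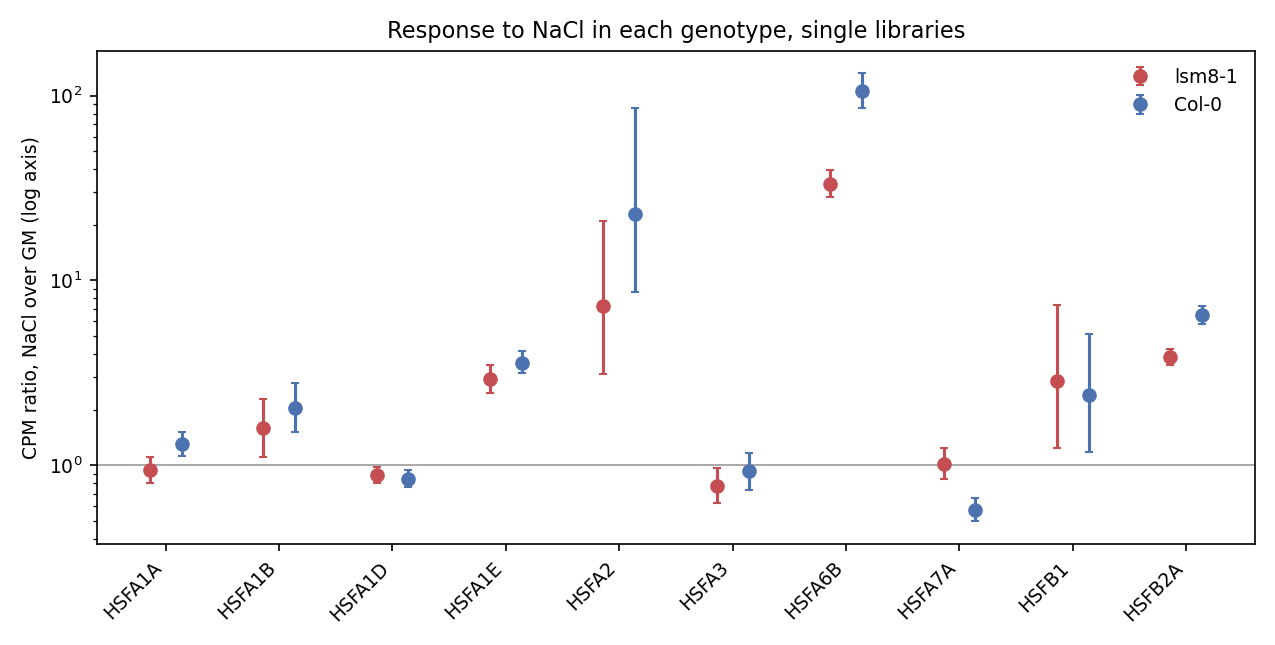
Ratio of CPM with NaCl over GM for each member (log axis), lsm8-1 in red and Col-0 in blue, with exact 95% counting intervals from single libraries. HSFA6B stands at 33.3 in lsm8-1 and 106 in Col-0, and the ratios of HSFA1D and HSFA3 lie at or below 1 in both genotypes.

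In the cold, 1 member was 2-fold or more higher and 1 lower in lsm8-1, against 11.9% and 11.5% of genes, and 1 was higher and 2 lower in Col-0, against 12.7% and 12.2% of genes. HSFA1E in lsm8-1 reached 5 CPM only at 4 °C, and HSFB2A in both genotypes only at 20 °C. The fitted difference in response, on the same baseline over the 20 °C and GM pairs, was -1.99 ± 0.80 for HSFA3 (unadjusted p = 0.0408, adjusted p = 1.0) and 0.74 ± 0.33 for HSFA1E (unadjusted p = 0.0582, adjusted p = 1.0). From the soil libraries alone, with no test, it was -2.07 for HSFA3 and 0.72 for HSFA1E. HSFA3 stood at 0.137 (0.0522 to 0.303) of its 20 °C level in lsm8-1, against 0.572 (0.309 to 1.04) in Col-0, from counts of 7 to 49. The cold interaction called 0 of 20228 genes in edgeR (830, or 4.1%, at an unadjusted p under 0.05), and 62 with library totals.

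Sequence upstream of 3 members is shown because they hold matches to the heat shock element, and HSFA1E rose in both stresses, HSFA2 with NaCl, while HSFA7A fell in the cold. Windows of 250 bases before the annotated start were read on both strands from RefSeq TAIR10.1, at RefSeq's own annotation of each locus. Motifs were GAANNTTC or TTCNNGAA for the heat shock element, ACGTG or CACGT for the abscisic acid response element core, and CCGAC or GTCGG for the DREB core. They occur in 16.1%, 22.9% and 12.0% of 27443 promoters. The lines give chr2:11135466-11135623 (the part of the HSFA2 window outside the neighbouring gene), chr3:19264891-19265140 for HSFA7A and chr3:673178-673427 for HSFA1E, all on the + strand, and capitals mark matches.
HSFA2: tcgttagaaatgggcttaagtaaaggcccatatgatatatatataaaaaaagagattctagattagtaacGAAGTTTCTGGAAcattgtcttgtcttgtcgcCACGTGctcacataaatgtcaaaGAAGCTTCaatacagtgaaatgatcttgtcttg
HSFA7A: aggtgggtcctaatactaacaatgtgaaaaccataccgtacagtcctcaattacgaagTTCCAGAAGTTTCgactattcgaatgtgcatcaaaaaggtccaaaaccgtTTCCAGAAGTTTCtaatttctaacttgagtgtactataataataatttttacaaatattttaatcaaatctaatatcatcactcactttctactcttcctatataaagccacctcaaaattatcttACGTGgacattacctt
HSFA1E: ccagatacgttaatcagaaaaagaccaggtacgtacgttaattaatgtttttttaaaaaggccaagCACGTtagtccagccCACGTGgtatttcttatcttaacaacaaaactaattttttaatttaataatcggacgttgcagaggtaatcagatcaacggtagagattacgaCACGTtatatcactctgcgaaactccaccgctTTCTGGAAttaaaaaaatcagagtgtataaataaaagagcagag
HSFA2 holds 3 heat shock elements, 2 of them overlapping, starting at -88, -83 and -33 from the annotated start, and a CACGTG at -56 that counts on both strands. HSFA7A holds 4, in 2 overlapping pairs beginning at -192 and -142, and an abscisic acid core at -16. HSFA1E holds a heat shock element at -44 and abscisic acid cores at -184, -169 and -76, the one at -169 again a CACGTG. HSFA1B has 3 abscisic acid cores and HSFA1D 1, and HSFA1A and HSFB2A have 1 DREB core each. The DREB core of HSFA1A, at -119, lies within the neighbouring gene AT4G17760. None of these letters occur in the windows of HSFA6B, HSFA3 and HSFB1. Matches are descriptions and not tested sites.

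HSFA2 has a mini-exon in its intron that is described in heat-stressed plants. The model that includes it is AT2G26150.2, the second of the 2 models counted on plates. The mini-exon lies at chr2:11136246-11136276 on the + strand of TAIR10.1 (31 bases, as is the difference between the deposited lengths, 1422 for model 2 and 1391 for model 1).
HSFA2 mini-exon: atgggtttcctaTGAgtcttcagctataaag
The capitals mark a stop codon in the frame of the start codon of model 1. The reading frame then ends after 107 codons, while model 1 runs for 345 codons. With NaCl, model 1 held 16 of 46 reads in lsm8-1 (34.8%, Wilson 95% interval 22.7 to 49.2) and 22 of 96 in Col-0 (22.9%, 15.6 to 32.3). On GM it held 2 of 6 reads in lsm8-1 and 0 of 4 in Col-0. The share of the mini-exon model was thus 65.2% in lsm8-1 and 77.1% in Col-0 with NaCl, with overlapping intervals and 1 library each. A move of 10 percentage points or more between the genotypes with NaCl, as here, occurred at 24.7% of 4501 loci with 20 reads or more in both libraries. HSFA2 had too few reads on GM for this count, and HSFA1B, counted there, did not move by 10 points, against 30.4% of 4447 loci. How a read was given to 1 of 2 models is not stated. Counts are of uniquely placed reads, and loci with several models hold 6.92% of reads on plates against 35.4% in soil. The shares are therefore of reads counted to a model and not a level of mini-exon inclusion.

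**Figure D4:**
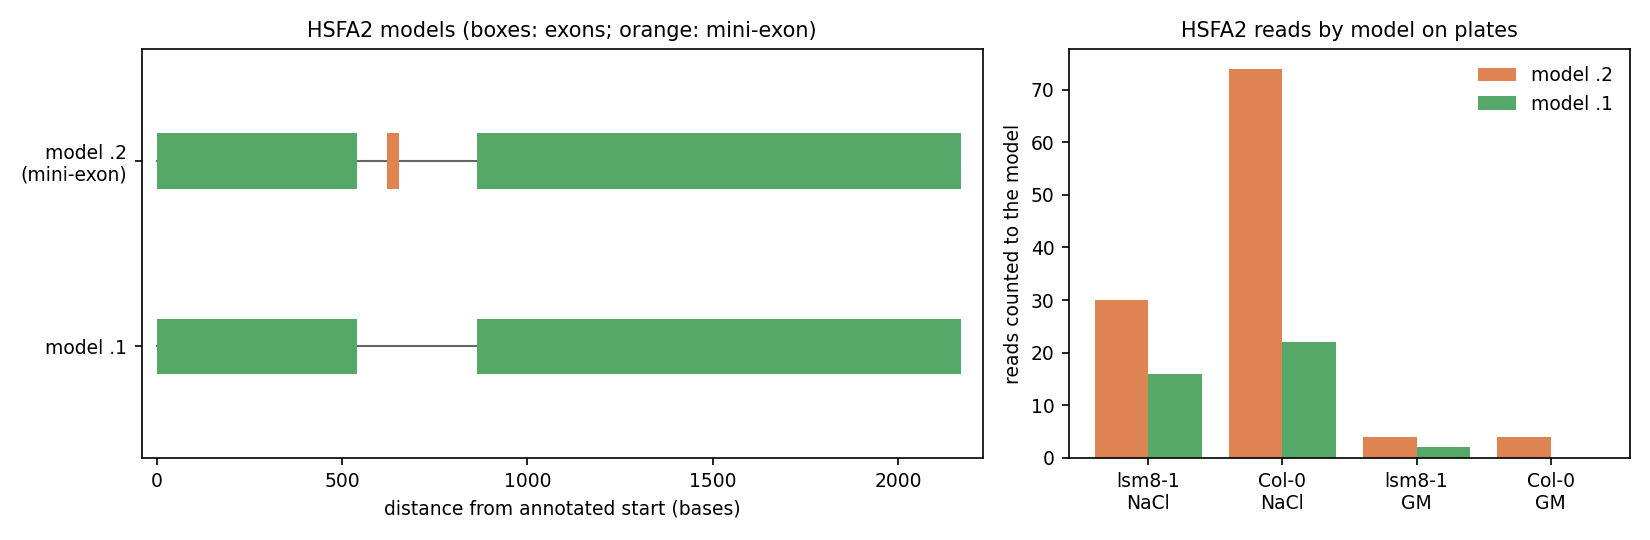
Left, exons of the 2 HSFA2 models counted on plates by distance from the annotated start in bases; right, reads counted to each model in the 4 plate libraries. Model 2, with the mini-exon in orange, took 30 reads in lsm8-1 and 74 in Col-0 with NaCl, and model 1 took 16 and 22.

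HSFA1B was the other member with 2 models, which differ at the start of the last exon and at their ends. Model 1 held 58.0% (47.5 to 67.7) of reads in lsm8-1 and 58.5% (50.1 to 66.5) in Col-0 with NaCl, and 67.9% (54.5 to 78.9) in lsm8-1 and 60.3% (48.0 to 71.5) in Col-0 on GM. The intervals overlapped between all 4 libraries.

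Of the other 11 HSF genes, 10 were tested, and 5 rose with NaCl and 0 fell, against 15.2% of genes higher and 15.1% lower. HSFA6A, a class A factor, had 886 reads in lsm8-1 and 1935 in Col-0 with NaCl, against 24 in lsm8-1 and 15 in Col-0 on GM (5.98 ± 0.54, adjusted p = 0.000446). It reached the filter of 1 CPM in the NaCl libraries alone, and 4 of the other 9 rose. HSFA4A and HSFB2B rose by 1.80 and 1.46. HSFA9 rose by 2.67 from few reads, 17 in lsm8-1 and 5 in Col-0 with NaCl, against 2 in lsm8-1 and 1 in Col-0 on GM. In the cold 3 rose and 1 fell, against 19% of genes higher and 20.1% lower. These effects were 2.43 ± 0.19 for HSFA8, 1.66 ± 0.24 for HSFC1, 1.26 ± 0.33 for HSFA4A and -0.76 ± 0.17 for HSFB2B. None passed for genotype in edgeR, while 3 of the 10 had an unadjusted p under 0.05, against 18.6% of all genes.

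Among 18 upstream regulators and partners, all tested, 7 rose with NaCl and 1 fell, against 15.2% of genes higher and 15.1% lower. In the cold 11 of these rose and 2 fell, against 19% of genes higher and 20.1% lower. DREB2A, the drought and heat factor that activates HSFA3, rose by 3.52 ± 0.33 with NaCl and by 4.49 ± 0.36 in the cold. ABF3 and ABF2, factors of abscisic acid signalling, rose by 2.66 ± 0.31 and 2.47 ± 0.18 with NaCl, and DREB2B by 1.81 ± 0.29. HSBP, a protein that binds HSFs and dampens them, was the one that fell with NaCl (-0.52 ± 0.13), and is named here after its value was seen. DREB2C, DREB2B and the cytosolic chaperone gene HSC70-2 rose by 3.62 ± 0.57, 3.11 ± 0.35 and 2.68 ± 0.19 in the cold. DREB2B was the one regulator past the threshold for genotype (1.31 ± 0.22, adjusted p = 0.0426), against 0.756% of genes higher and 0.336% lower. It had 7.02 CPM in lsm8-1 and 4.67 CPM in Col-0 at 4 °C, 1.24 and 0.299 CPM at 20 °C, 36.2 and 12.5 CPM with NaCl, and 10.1 and 3.64 CPM on GM, lsm8-1 before Col-0. The genes HSP90.2, HSP90.3 and HSP90.4 are near-identical in sequence, so their uniquely placed reads are uncertain.

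Of 25 HSF target genes, 23 were tested, and 18 rose with NaCl and 0 fell, against 15.2% of genes higher and 15.1% lower. HSP22, HSP17.6C, HSP23.6 and HSP26.5 reached the filter of 1 CPM in the NaCl libraries alone, so their entry rests on the group in which they are higher. Of the other 19, 14 rose and 0 fell. HSP22, a small heat shock protein of the endoplasmic reticulum, had 411 reads in lsm8-1 and 1747 in Col-0 with NaCl, against 10 in lsm8-1 and 2 in Col-0 on GM (7.10 ± 0.83, adjusted p = 0.00269). HSP17.6A rose by 3.75 ± 0.62, HSP23.6 by 3.65 ± 0.74 and HSP26.5 by 3.55 ± 0.70. In the cold 6 targets rose and 4 fell, against 19% of genes higher and 20.1% lower. The rises included HSP17.6A at 4.03 ± 0.73, HSP17.6II at 3.41 ± 0.59 and HSP70-4 at 2.88 ± 0.28. HSP26.5 had no read in either genotype at 4 °C, against 16 in lsm8-1 and 12 in Col-0 at 20 °C. None of the 23 passed for genotype in edgeR, with 5 at an unadjusted p under 0.05, near the 18.6% of all genes. The median effect of the targets was 1.66 with NaCl, 1.32 over those 19, and 0.28 in the cold.

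**Figure D5:**
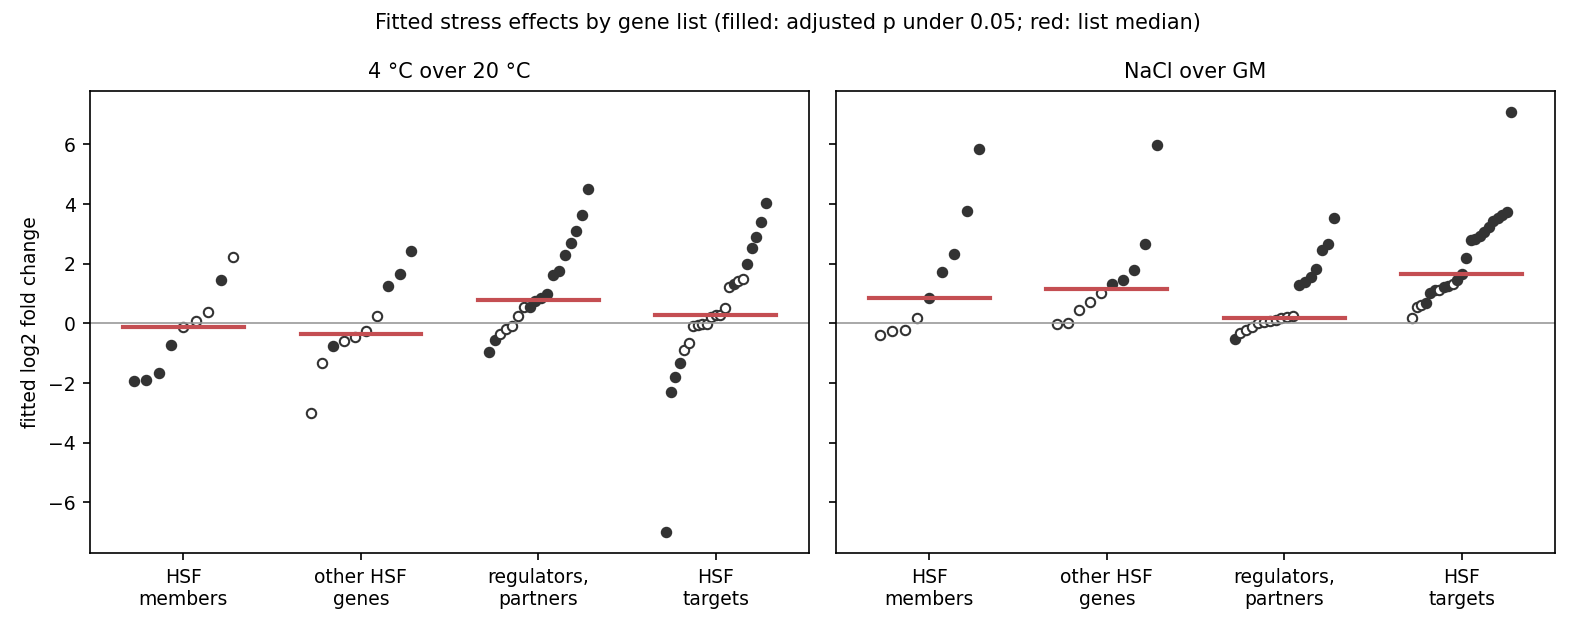
Fitted log2 fold changes of the members and of 3 further gene lists, in the cold (left) and with NaCl (right); filled points have an adjusted p under 0.05 and red bars are medians of the genes tested. With NaCl the medians are 0.86 for the members, 1.16 for the other HSF genes, 0.19 for regulators and partners and 1.66 for HSF targets.

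Likeness was measured on log2(CPM + 1), centred within each experiment, for members averaging 5 CPM or more, which leaves out HSFA2, HSFA3, HSFA7A and HSFB1. HSFA6B reached that average only through the NaCl libraries, at 129 CPM in lsm8-1 and 210 CPM in Col-0. On the log2 scale HSFA6B (6.14) and HSFB2A (2.56) had the widest range. Over the 8 centred libraries, the genes most like HSFA6B were AT4G37225, AT5G40000 and AT3G56275, each with a Pearson r of 0.999, and 443 genes reached an r of 0.95. The genes most like HSFB2A were ABCG15 (AT3G21090) at 0.995, AT1G22160 at 0.992 and AT3G17940 at 0.991, with 120 genes at 0.95. The 8 points share the libraries and their stress contrast, and no p is given.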

How the data were processed

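RNA-seq tables of 8 libraries were used, 1 per genotype and condition. Per the file headers, the authors deposited the count of uniquely placed reads per feature, with RPKM, feature length and coverage. The counts are whole numbers that were not normalized. Deposited RPKM values were used for levels between genes in soil only. The deposited coverage is a percent of the feature length covered, and in 2 NaCl tables it passes 100 for some features, so there it was treated as a score. The submitters' processing notes name TAIR10 as the build. Aligner, counting tool, versions and strand setting: not given in the sources used here. Features not listed were taken as 0, and models of a locus were summed on plates.

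TMM factors, from 0.756 to 0.845 in soil and 1.16 to 1.32 on plates, scaled the counts. A gene entered the fit with at least 1 CPM in any 2 libraries. This filter of 1 CPM used library totals, before TMM scaling, unlike the CPM values printed. The fit used edgeR 4.0.16 in R 4.3.3 (condition and genotype, 3 residual degrees of freedom; quasi-likelihood test, Benjamini-Hochberg over 20228 genes, threshold 0.05). A further fit added the differences in response between genotypes. The spread behind these p-values is that of an additive fit without replicates, so it also holds differences in response. Ratios of single libraries carry exact Clopper-Pearson 95% intervals and no test, and a member was called at 2-fold or more with 5 CPM or more in 1 library. Shares carry Wilson intervals. Intervals and floors cover counting error only. Alternatives were DESeq2 1.42.0, other scalings and filters, the top model of each locus, and libraries left out.

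All 10 members are named. From the other lists up to 4 genes per effect are named, those past the threshold with the largest effect in either direction. The members and lists were chosen with earlier results of these data known. Promoter and exon sequences are from RefSeq TAIR10.1, matched by locus identifier for 10 of 10 members, and protein sequences were not used here.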

Additional observations from a re-analysis of the deposited data

Results flagged for a closer look

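For 6 of the 9 members tested (66.7%) the lsm8-1 over Col-0 ratio lay above 1 in 1 condition and below 1 in another. Counting intervals were clear of 1 in both. Of all 20228 genes tested, 6239 (30.8%) met the same rule, so it is common in these libraries, where intervals cover counting error only. Each ratio comes from 2 single libraries, and these conditions were not tested one against another. The interaction tests above, on a pooled baseline, called no member. HSFA1A stood at 1.17 at 4 °C and 1.48 at 20 °C, and at 0.780 with NaCl. HSFA1E stood at 1.23 at 4 °C, against 0.745 at 20 °C, 0.592 with NaCl and 0.727 on GM. HSFA2 stood at 2.55 at 20 °C and 0.522 with NaCl, from counts of 18 to 96 reads. HSFA3 stood at 0.340 at 4 °C, with 7 reads in lsm8-1 and 20 in Col-0, and at 1.32 on GM. HSFA6B stood at 0.611 with NaCl and 1.94 on GM, and HSFB2A at 0.865 with NaCl and 1.45 on GM.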

How the results depend on the processing

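No paired analysis was possible because each group has 1 library and the replicate numbers only name samples. Alternatives that leave out 1 library, and list counts without genes that entered through NaCl alone, were chosen after seeing the data. With 1 library left out, the lone library of a group is assumed to vary like the others. Those fits gave 28 to 98 genes for genotype (221 with all libraries), 4094 to 8054 in the cold and 3260 to 5925 with NaCl, and 3 to 5 members past the threshold in the cold and 3 to 5 with NaCl. For genotype, 34, 51, 29 and 101 genes passed without the 20 °C, 4 °C, GM and NaCl pair, 1504 in the cold experiment alone and 1405 in DESeq2, which called 1 member. With library totals, 62 genes passed for the difference in cold response and 173 for salt, and 0 members. At 1 CPM in place of 5 CPM, members at 2-fold or more numbered 1 for genotype at 20 °C (4.06% of all genes), 4 for cold in lsm8-1 (25.8%) and 4 in Col-0 (27.2%), and 4 for salt in lsm8-1 (21.9%) and 5 in Col-0 (22.7%). With a minimum of 50 reads, HSFA2 (46 reads in lsm8-1) was no longer counted in model use between genotypes with NaCl, so 0 members shifted, against 732 of 3732 loci.

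Signs turned only for effects that did not pass. Leaving out 1 library, the cold effect of HSFA2 ran from -0.48 to 0.92 and that of HSFA1A from -0.38 to 0.18, and the NaCl effect of HSFA3 from -0.46 to 0.020 and that of HSFA1A from -0.13 to 0.49. The genotype effects then ran from -0.0071 to 0.27 for HSFA1A, -0.059 to 0.88 for HSFA2, -0.10 to 0.34 for HSFA3 and -0.62 to 0.82 for HSFA6B. Without the 20 °C pair they were -0.0080, -0.062, -0.061 and 0.052 for HSFA1A, HSFA2, HSFA3 and HSFA6B. HSFA3 was -0.11 without the GM pair and HSFA6B 0.67 without the NaCl pair. In the salt experiment alone HSFA1A was -0.13 and HSFA2 -0.55. By top model HSFA6B was 0.0018, and its difference in cold response was 0.085 with library totals. The cause was not tested. Counts were low for HSFB1 on plates, for HSFA6B in soil and for HSFA2 on GM. Why HSFB1 had no read in soil was not tested.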

Other observations

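HSFB1 is annotated by RefSeq with an upstream open reading frame, and its counts in soil were 0. Of the protein-coding genes with a read on plates, 14 of 63 with such an annotation (22.2%) had no read in the 4 soil libraries, and 1739 of 23790 without it (7.31%) had none. The part of the annotation in the counts was not tested.

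The target gene HSP23.5, which encodes a small chaperone of mitochondria, was 2-fold or more higher in lsm8-1 in each single pair, at 3.47-fold (3.20 to 3.77) at 4 °C, 24.3-fold (19.0 to 31.6) at 20 °C, 2.70-fold (2.46 to 2.97) with NaCl and 4.55-fold (3.88 to 5.35) on GM. It did not pass the edgeR test for genotype (2.37 ± 0.46, adjusted p = 0.0643). HSP22 with NaCl stood at 10.0 CPM in lsm8-1 and 39.1 CPM in Col-0, a ratio of 0.256 (0.230 to 0.286). Both were chosen after their values were seen and have no replicate check.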
